A study of Mus musculus with 14 samples.

Results

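Lipid-associated macrophage markers were examined in liver RNA of male Apoe-deficient mice, which lack apolipoprotein E and develop a fatty liver. Their strain is C57BL/6 by the labels, and C57BL/6J by the methods. These markers are Trem2, Gpnmb, Cd9, Spp1, Lgals3, Cd36, Lpl, Itgax, Mmp12 and Cd63, taken by their symbols from the deposited gene table, and all 10 were found among its 17552 genes. The control group received a Western diet and the erythrodiol group the same diet with erythrodiol, a triterpene of the olive. The dose was 10 mg per kg of mouse, which the methods derive from an assumed food intake. The labels give an age of 8 weeks for all mice. They also give 8 weeks of feeding, whereas the methods of the study give a longer period. Each group comprised 7 libraries, and each library was made from the pooled RNA of a few mice. Both groups carry the same genotype, and Apoe was still counted in both, with 9403 counts in the control and 8293 in the erythrodiol group. The table does not say from which part of Apoe these counts came, so they are no check of the deletion. The study reports its own check by RT-PCR, which found no Apoe expression in the liver of its Apoe-deficient mice.

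Lipid-associated macrophages are macrophages that gather around lipid-laden or dying cells in adipose tissue, in atherosclerotic plaques and in the fatty liver. They carry TREM2, a surface receptor for lipids and lipoproteins, and express a program of lipid uptake, lysosomal digestion and matrix remodelling. In the liver they add to the resident Kupffer cells and are found around steatotic hepatocytes and bile ducts. Most of the genes that mark them are also used by other liver cells. Spp1 is expressed by bile duct epithelium, Cd36 by endothelium and by steatotic hepatocytes, and Cd9 and Cd63 by many cell types. In bulk RNA, fewer cells of a type and less RNA per cell cannot be told apart.

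The gene table holds for each gene a single expected count in each group, in which its 7 libraries are added up, with totals of 122889032 in the control and 124686047 in the erythrodiol group. Thus, every gene has 1 pooled value per group, there is no replicate error for any gene, and whether the groups overlap cannot be seen. Levels are given as CPM, counts scaled to a total of 1000000 in each group. No test of the diets was possible for these genes, and the intervals given are exact 95% intervals that cover counting error only. Control libraries held 34856340 to 55244294 clean reads and erythrodiol libraries 47669656 to 48058606. The share of clean reads mapped to genes was 64.3% to 81.4% in control and 73.0% to 76.1% in erythrodiol libraries. Single libraries supplied 9.12% to 17.3% of the mapped read pairs of the control group and 13.9% to 14.6% of the erythrodiol group. The part of single libraries in the values of the markers was not tested.

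Of the 10 markers, 9 had a lower share of the counts in the erythrodiol group, as had 28.8% of all genes, and only Lpl a higher one. The sum of all 10 was 618.1 CPM in the control and 481.0 in the erythrodiol group, 77.8% of control (counting interval 77.0 to 78.7%). The median log2 ratio of erythrodiol to control was -0.45 for the markers, compared with 0.16 for the 13291 genes that reached 100 counts over both groups. In all counts of genes below, lower means at least 20% lower and higher at least 25% higher in the erythrodiol group, the same fold in both directions. By this limit 6 markers were lower, namely Cd36, Spp1, Cd63, Lgals3, Mmp12 and Trem2, and 0 were higher, while 8.89% of all these genes were lower and 24.4% higher. None of the 10 was past 2-fold, as were 0.767% of all genes. The counting interval lay wholly below no difference for 8 markers, beside 17.4% of all genes, and wholly above it for Lpl, beside 54.6%. For Itgax it included no difference.

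**Figure D1:**
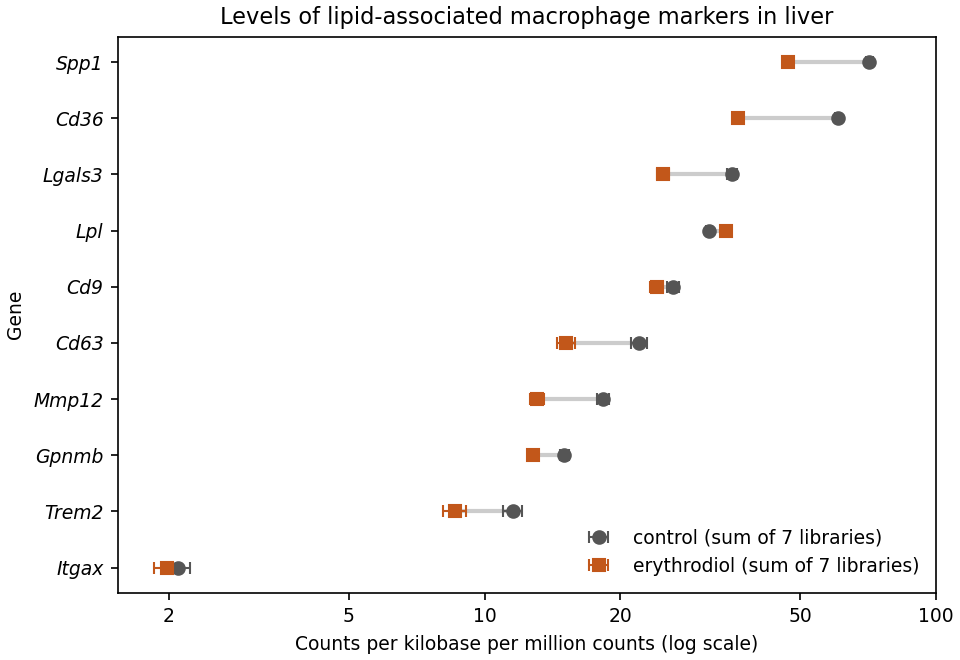
Level of each marker in the control (circles) and erythrodiol (squares) group, in CPM per kilobase of gene length on a log scale, with 95% Poisson intervals that cover counting error only. All markers except Lpl lie further left with erythrodiol, and the gap on this scale is widest for Cd36, from 60.6 to 36.5.

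Per kilobase of gene length, the markers spanned from 71.2 CPM for Spp1 to 2.09 for Itgax in the control group. The order in the control was Spp1, Cd36, Lgals3, Lpl, Cd9, Cd63, Mmp12, Gpnmb, Trem2 and Itgax, and the counting intervals of no neighbours overlapped. With erythrodiol, Lpl stood before Lgals3 and the rest of the order was kept. There the intervals of Lgals3 and Cd9, with 24.9 and 24.1 CPM per kilobase, overlapped, as did those of Mmp12 and Gpnmb, with 13.1 and 12.8. The spread of these levels between mice is not known.

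The log2 ratio varied with gene length over all genes. When the 13291 genes were split by length into 5 classes of about equal size, its median was -0.06 in the shortest class, of 333 to 1640 bases, and 0.30 in the longest, of 4675 to 26655 bases. For this reason each marker was also compared with the 500 genes nearest in length. Relative to their median, all 10 markers were lower in the erythrodiol group, by log2 differences from -0.10 for Cd9 and Lpl to -0.89 for Cd36, with a median of -0.42. On this scale 7 markers were lower by the same limit, Gpnmb being added, and 0 higher, compared with 13.5% and 6.06% of all genes. For the short markers Cd63 and Trem2 the difference was smaller on this scale than by column totals, and for the long ones Gpnmb and Itgax it was greater.

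**Figure D2:**
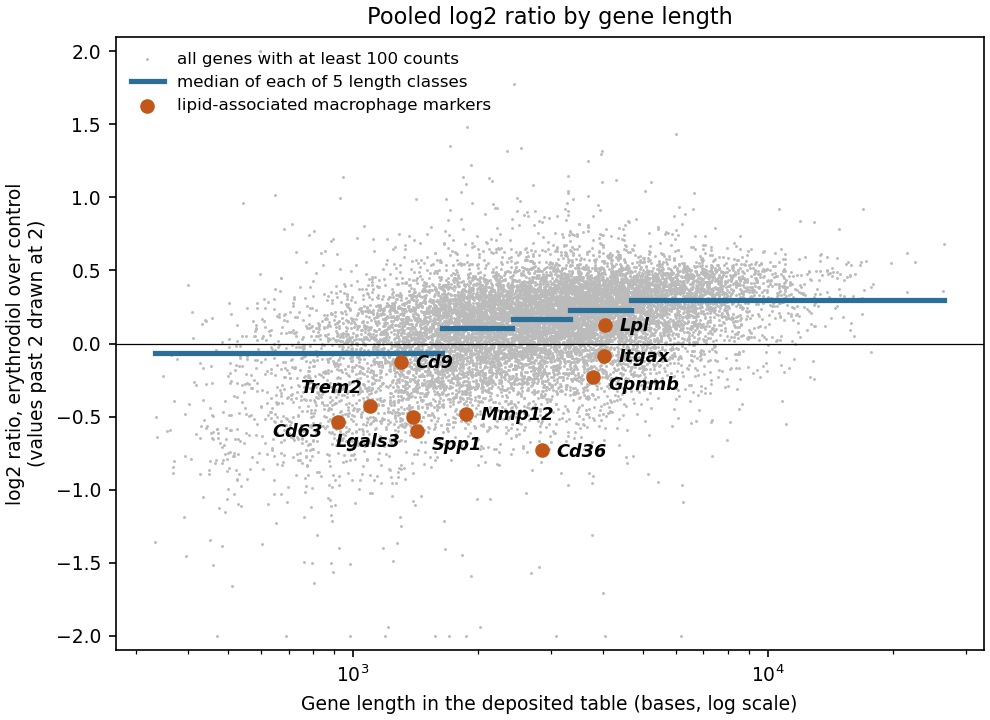
Log2 ratio of erythrodiol to control against gene length in bases (log scale) for 13291 genes (grey), with the median of each of 5 length classes (blue lines) and the 10 markers (orange). Medians go from -0.06 in the shortest to 0.30 in the longest class, and each marker lies below the median of the genes of its length class. Genes past 2 in either direction are drawn at 2.

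**Figure D3:**
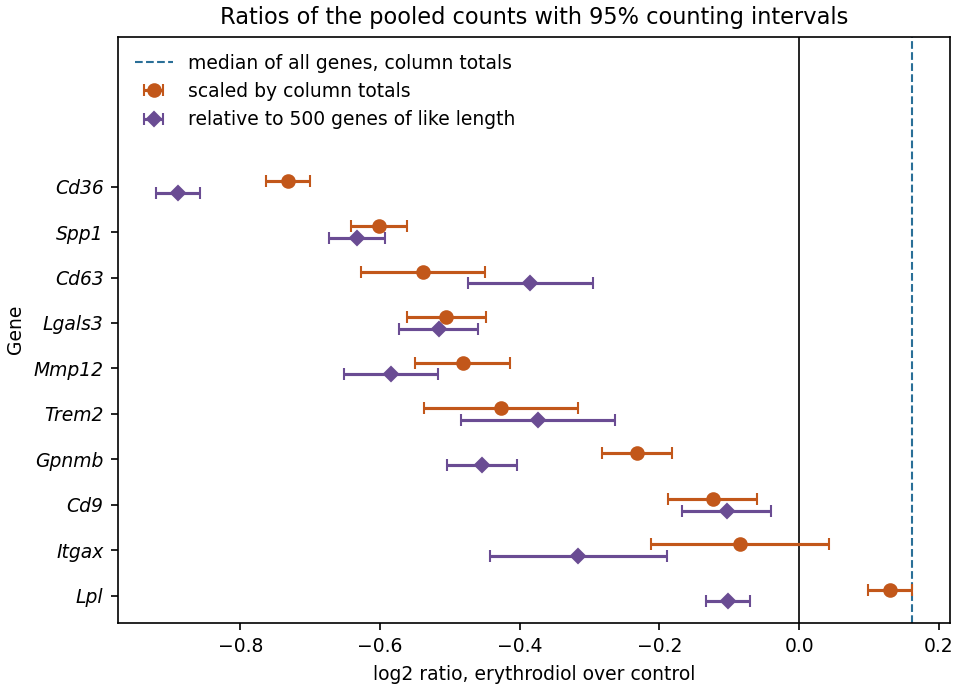
Log2 ratio of erythrodiol to control for each marker, scaled by column totals (circles) and relative to the median of 500 genes of like length (diamonds), with 95% counting intervals that leave out the error of that median. The dashed line is the median of all genes, 0.16, and Lpl is right of 0 by column totals and left of it by like length.

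Among the surface receptors, Trem2, the lipid receptor that these macrophages carry, had 1557 counts in the control and 1175 in the erythrodiol group. Its share of the counts was 25.6% lower with erythrodiol, a log2 ratio of -0.43 (counting interval -0.54 to -0.32). Trem2 is 1098 bases long, and 95 of the 500 genes of like length had a lower ratio, so that its ratio was within the lower part of their range. Cd36, a scavenger receptor that takes up fatty acids and oxidised lipoproteins, had 21278 counts in the control and 13007 in the erythrodiol group. It was 39.8% lower, at 60.2% of control (counting interval 58.9 to 61.6%), the lowest of the 10 ratios. Only 2 of the 500 genes nearest to Cd36 in length, and 1.68% of all genes, had a lower ratio.

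Itgax, the CD11c integrin chain of dendritic cells and of activated macrophages, had 1036 and 991 counts. The log2 ratio of -0.08 had a counting interval of -0.21 to 0.04, so that no difference was detectable by column totals at this depth. Against genes of like length Itgax was at -0.32, just short of the limit. Gpnmb, a glycoprotein of lysosomes and of the cell surface that is induced in lipid-loaded macrophages, had 7013 and 6059 counts. It was 14.8% lower by column totals and at a log2 difference of -0.45 from its like-length genes, of which 34 of 500 were lower.

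Both tetraspanins, membrane proteins that organise receptors into patches, were counted less often with erythrodiol, but to a different extent. Cd9 had 4207 counts in the control and 3917 in the erythrodiol group and was 8.24% lower, with 196 of 500 genes of like length below it. Cd63, which resides in late endosomes and lysosomes, had 2482 and 1734 counts and was 31.1% lower. It is the shortest marker, with 918 bases, and 98 of the 500 genes of like length, whose median was -0.15, had lower ratios.

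The secreted products held both the highest level and the single higher ratio. Spp1, or osteopontin, a matrix protein that attracts and retains macrophages, had 12503 counts in the control group, compared with 8363 in the other. This was 65.9% of control (counting interval 64.1 to 67.8%), and 14 of 500 genes of like length were lower. Lgals3, a galectin that binds galactosides and marks damaged lysosomes, had 6049 and 4324 counts and was 29.5% lower, with 36 of 500 below. Mmp12, the macrophage elastase, had 4217 and 3064 counts and was 28.4% lower, with 18 of 500 below. These 3 genes had log2 differences of -0.63, -0.52 and -0.58 from genes of like length, close to each other although their levels in the control group ranged from 71.2 to 18.3 CPM per kilobase.

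Lpl, the lipase that releases fatty acids from circulating lipoproteins, had 15615 counts in the control and 17338 in the erythrodiol group. The share was 9.44% higher with erythrodiol by column totals (log2 ratio 0.13, counting interval 0.10 to 0.16). Centred on the median of all genes it was -0.03, and relative to genes of like length -0.10, so that its direction depended on the scaling. It was also 1 of 2 markers, with Itgax, whose counts were not whole, as happens when reads are divided among genes.

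The other genes of the program were read from lists of known members. Values of the lists are by column totals unless stated otherwise. Over all genes, 8.89% were lower and 24.4% higher on that scale, with a median log2 ratio of 0.16. In the TREM2 receptor complex and its family, 7 of 10 genes had at least 100 counts, of which 2, Tyrobp and Hcst, were lower and 0 higher, with a median log2 ratio of -0.08. Tyrobp, the adaptor that carries the TREM2 signal, had 6499 counts in the control and 3760 in the erythrodiol group, a log2 ratio of -0.81, and -0.48 relative to genes of like length. Hcst, the other small adaptor, had 74 and 43 counts. Syk, the kinase that docks on Tyrobp, was at -0.17, Plcg2 at -0.08 and Inpp5d, a lipid phosphatase of the same cells, at 0.07. By column totals the adaptor thus stood lower than the enzymes behind it. Tyrobp is 586 bases long and Syk 4922, and relative to genes of like length they were at -0.48 and -0.44. On that scale 4 of the 7 genes were lower, Syk and Plcg2 being added, and 0 higher, with a median of -0.335. Of all genes 13.5% were lower and 6.06% higher on it.

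Of 23 other genes described in lipid-associated macrophages, 7 were lower and 1, Mertk, higher, with a median of -0.09. The lower ones were Fabp4 and Fabp5, which carry fatty acids in the cytoplasm, Plin2, a lipid droplet coat, Ccl6, a chemokine, Msr1, a scavenger receptor, Capg, which caps actin filaments, and Ms4a7. Msr1 had 3475 and 2401 counts and Fabp4 1401 and 834. Mertk, a receptor for apoptotic cells, was at 0.35 by column totals and at 0.095 relative to genes of like length. The lysosomal enzymes of this list did not reach the limit by column totals, with Ctsd at -0.27, Ctsl at -0.17, Ctsk at -0.09, Ctsb at 0.05, Ctsz at 0.17 and the acid lipase Lipa at 0.19. Relative to genes of like length Ctsd was lower by the limit, at -0.38. The other enzymes were within it, from -0.23 for Ctsl to 0.14 for Ctsz.

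The families of single markers did not share one direction by column totals, and they are read beside the 8.89% lower and 24.4% higher of all genes. Of 14 other tetraspanins 4 were lower and 0 higher, with a median of -0.13. The lower ones were Tspan8, at -1.36, Cd53, a leukocyte tetraspanin, at -0.67, and Cd151 and Tspan3, both at -0.37. Among galectins with at least 100 counts, Lgals1 was lower, at -0.59, and Lgals4 higher, at 0.40, and the median of 6 was 0.18. Matrix metalloproteinases and their inhibitors had a median of 0.04 over the 10 of 14 genes with at least 100 counts. Of these, Mmp13 was lower, at -0.67 with 124 and 79 counts, and Mmp15 higher, at 0.36. Among those with fewer counts, Mmp7 was at -1.97 with 77 and 20 counts, and Mmp3 at 0.69 with 11 and 18. Of 6 leukocyte integrins, with a median of -0.12, 0 were past the limit in either direction, and Itgb2, the partner chain of CD11c, was at -0.21. The 8 osteopontin receptors also held 0 past the limit, with a median of 0.08, Cd44 at -0.28 and Itgb1 at -0.25. Relative to genes of like length, the medians of the families in this order were -0.18, 0.05, -0.15, -0.30 and -0.195. Lower on that scale were 5 of 14 tetraspanins, 2 of 6 galectins, 2 of 10 metalloproteinases and inhibitors, 3 of 6 leukocyte integrins and 2 of 8 osteopontin receptors. Only Lgals4 was higher, and of all genes 13.5% were lower and 6.06% higher.

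In the context of fatty acid uptake, 5 of 8 genes known from steatotic hepatocytes were lower and 0 higher, with a median log2 ratio of -0.35. Plin2 and Fabp4, among the lower ones, were already counted with the other genes described in lipid-associated macrophages. Mogat1 was at -0.90 with 271 and 147 counts, G0s2 at -0.56 and Cidec at -0.37, while Pparg, the receptor that drives Cd36 and several of these genes, was at 0.11. Among 7 class B scavenger and fatty acid uptake proteins, with a median of 0.18, 2 were lower and 1 higher. Fabp2, an intracellular carrier, was at -0.73 and Fabp1, the abundant carrier of hepatocytes, at -0.40, or -0.06 relative to genes of like length. Scarb1, the HDL receptor of the same class as CD36, was the higher one, at 0.38. Of 12 partners and relatives of lipoprotein lipase, with a median of 0.00, 0 were lower and 2 higher, beside 8.89% and 24.4% of all genes. The higher ones were Lipg, the endothelial lipase, at 0.87 with 910 and 1688 counts, and Sel1l, at 0.51. Lipoprotein lipase needs Sel1l to leave the endoplasmic reticulum. Of 5 genes in the list of MiT/TFE factors, which control lysosomal genes and Gpnmb, and relatives of Gpnmb, 2 were lower and 1 higher, with a median of 0.08. Tfec, at 519 and 296 counts, was at -0.83, Dct, a relative of Gpnmb, at -0.86, Mitf at 0.08, Tfeb at 0.31 and Tfe3 at 0.47.

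Markers of whole cell types were read in the same way, beside the same shares of all genes, 8.89% lower and 24.4% higher. Of 13 markers common to macrophages, 8 were lower and 0 higher, with a median of -0.43, and their summed level was 1353 CPM in the control and 1068 in the erythrodiol group. Adgre1, which encodes F4/80, had 5786 and 3487 counts, a log2 ratio of -0.75, whereas Csf1r was at -0.17 and Cd68 at 0.04. Of 12 Kupffer cell markers 6 were lower and 2 higher, with a median of -0.40 and summed levels of 1447 and 1212 CPM. Clec4f, the defining lectin of Kupffer cells, had 19293 and 12507 counts, Marco 6374 and 3086, and Timd4 1549 and 1127. The 2 higher ones were Cd163, with 211 and 321 counts, and C6, a complement gene that hepatocytes also express. Of 8 monocyte markers 5 were lower and 0 higher, with a median of -0.48 and summed levels of 49.0 and 34.1, led by Plac8 at -0.98. All defining macrophage markers were above 0 in both groups, and 0 genes of any marker list were at 0.

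**Figure D4:**
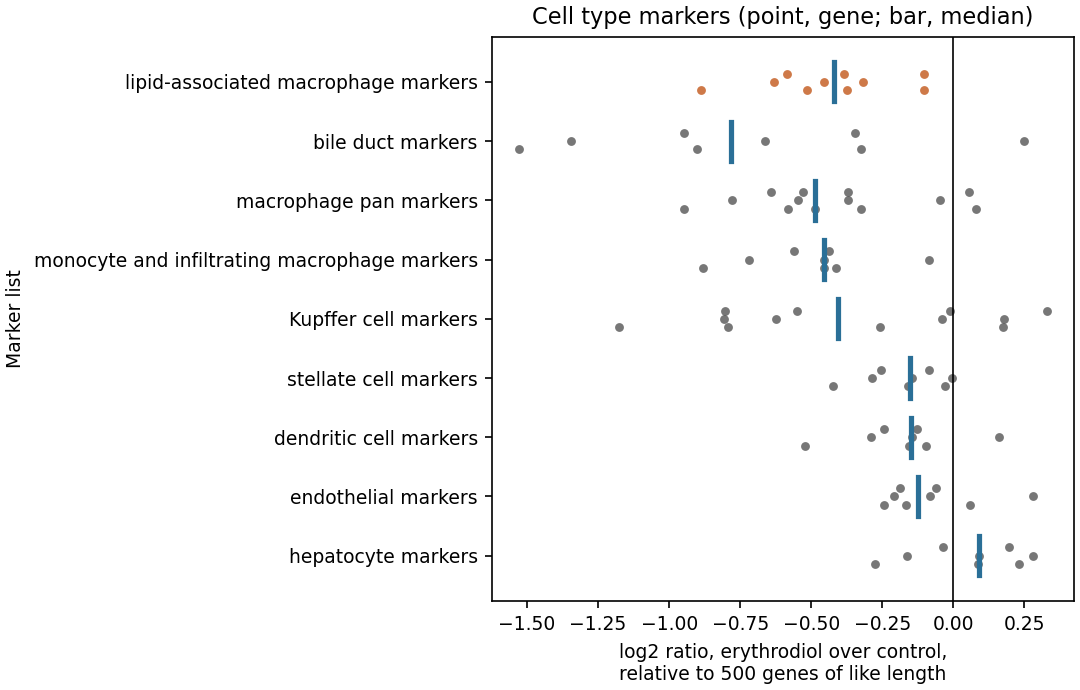
Log2 ratio of erythrodiol to control relative to 500 genes of like length, for the markers of each cell type with at least 100 counts (grey points) and the 10 lipid-associated macrophage markers (orange), with blue bars at the medians. Medians of the macrophage, monocyte and Kupffer lists, -0.49, -0.46 and -0.40, lie beside that of the 10 markers, -0.42, that of the bile duct list is lower, at -0.78, and those of dendritic, endothelial, stellate and hepatocyte lists lie at -0.15, -0.12, -0.15 and 0.09.

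Relative to the summed 13 macrophage markers, a scaling chosen after the values were seen, the sum of the 10 markers had a log2 ratio of -0.020. On that scale Cd36 was lower by the limit, at -0.39, and Lpl was higher, at 0.47. Trem2 was at -0.09, Spp1 at -0.26, Gpnmb at 0.11 and Cd9 at 0.22. The sum depended on single markers, since without Lpl the other 9 had a log2 ratio of -0.52 by column totals (69.6% of control), and without Cd36 one of -0.24 (84.7%), compared with -0.34 (78.9%) for the macrophage sum. Relative to single genes of macrophages the picture depended on the gene chosen. For each count of Adgre1 there were 0.269 counts of Trem2 in the control and 0.337 in the erythrodiol group, and for each count of Clec4f 0.0807 and 0.0939. All 10 markers were higher in proportion to Adgre1, by log2 differences from 0.020 for Cd36 to 0.88 for Lpl, and to Tyrobp, from 0.079 for Cd36 to 0.94 for Lpl. Adgre1 and Tyrobp themselves had lower ratios than any of the 10 markers, so that this direction was fixed by the choice of these genes. Of the 13 macrophage markers, Aif1 was lower still than Adgre1, at -0.97. Mpeg1, Csf1r, Cd74 and Cd68 were at -0.23, -0.17, -0.06 and 0.04. In proportion to each of these, Cd36, Spp1, Cd63, Lgals3, Mmp12 and Trem2 were lower. In proportion to Clec4f, Cd36 was at -0.085 and the other 9 were higher, from 0.045 for Spp1 to 0.78 for Lpl.

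Other sources of the same transcripts were examined by their own markers. Of 8 bile duct markers, 5 were lower, beside 8.89% of all genes, with a median of -0.69 over the list. Tspan8 had 337 and 133 counts, Krt19 280 and 153 and Epcam 353 and 244. The log2 ratio of Spp1 was thus accompanied by lower values of both macrophage and bile duct markers, and their part in it was not tested. Endothelial markers, the context of Cd36 outside macrophages, had a median of 0.11 and summed levels of 187.1 and 199.4. Of these 8, 0 were lower and 2, Kdr and Gpr182, higher, near the 24.4% higher of all genes, whose median was 0.16. Dendritic cell markers, which bear on Itgax, had a median of 0.07 with 0 of 8 past the limit, and summed levels of 17.3 and 17.6. Stellate cell markers had 0 of 8 past the limit, a median of 0.04 and summed levels of 478.7 and 463.1. Hepatocyte markers had a median of 0.17, near that of all genes, and summed levels of 106204 and 107073 CPM. Of these 8, 1 was higher, Cps1 at 0.36, beside 24.4% of all genes.

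The markers lie on different chromosomes of GRCm38 for the most part. Cd36 (5, from 17781690 to 17888959) and Spp1 (5, from 104435111 to 104441053) share a chromosome, as do Gpnmb (6, from 49036518 to 49058182) and Cd9 (6, from 125460266 to 125494760). Trem2 is on chromosome 17 from 48346401 to 48352276, Mmp12 on chromosome 9 from 7344397 to 7360461, and Itgax on chromosome 7 from 128129526 to 128150657. Lpl is on chromosome 8 from 68880555 to 68906932, Cd63 on chromosome 10 from 128896231 to 128912822, and Lgals3 on chromosome 14 from 47373860 to 47386167. Among the annotation terms in the deposited table, cell adhesion was held by Cd36, Cd63, Gpnmb and Spp1, compared with 2.25% of 13202 annotated genes, and cell surface by Cd36, Cd63, Itgax and Lpl, compared with 3.35% of 14625.

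Promoter sequences of RefSeq (GRCm38.p6), from 250 bases before to 50 after an annotated start, were at hand for 9 of the 10 markers in 11 windows. They are shown for 4 markers, each by a window that holds a letter match to AP-1 or PU.1. AP-1 was searched as TGACTCA and PU.1, the macrophage lineage factor, as GAGGAAGT, on both strands, and these 2 motifs do not overlap each other in the windows shown. AP-1 letters were found in 3 of the 11 windows, those of Gpnmb, Itgax and Mmp12, and in 5.20% of all 32851 windows. PU.1 letters were found in 2 windows, the Spp1 window shown here and the first of Mmp12, which is not shown, and in 3.20% of all windows. The E-box CACGTG was found in 0 of the 11 and in 7.15% of all windows, and TATAAA in 2 of the 11, of Spp1 and Mmp12, and in 13.6% of all. A match is a description of the letters and no sign of binding. Capitals mark the AP-1 and PU.1 letters, and each sequence is written 5′ to 3′ on the strand of the gene.
Spp1, chr5:104434861-104435160, plus strand: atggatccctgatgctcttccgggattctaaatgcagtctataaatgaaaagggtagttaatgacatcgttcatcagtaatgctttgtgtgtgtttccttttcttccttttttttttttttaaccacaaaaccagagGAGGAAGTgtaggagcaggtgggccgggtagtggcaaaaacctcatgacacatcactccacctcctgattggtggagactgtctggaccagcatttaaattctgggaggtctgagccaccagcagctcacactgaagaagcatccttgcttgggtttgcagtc
Mmp12, chr9:7347124-7347423, plus strand, the second of 2 windows: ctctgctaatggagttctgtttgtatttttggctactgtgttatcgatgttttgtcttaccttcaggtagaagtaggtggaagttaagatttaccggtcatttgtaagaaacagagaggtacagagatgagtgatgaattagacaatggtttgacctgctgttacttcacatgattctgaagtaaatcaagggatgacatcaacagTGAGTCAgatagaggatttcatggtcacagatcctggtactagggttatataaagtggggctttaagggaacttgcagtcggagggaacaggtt
Gpnmb, chr6:49036268-49036567, plus strand: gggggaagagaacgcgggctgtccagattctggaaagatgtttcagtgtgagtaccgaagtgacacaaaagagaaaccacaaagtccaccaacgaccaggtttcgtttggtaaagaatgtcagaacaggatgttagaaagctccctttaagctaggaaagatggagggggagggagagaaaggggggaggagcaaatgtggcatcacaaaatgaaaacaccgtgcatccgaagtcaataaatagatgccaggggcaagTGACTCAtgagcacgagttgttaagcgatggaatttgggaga
Itgax, chr7:128129300-128129599, plus strand: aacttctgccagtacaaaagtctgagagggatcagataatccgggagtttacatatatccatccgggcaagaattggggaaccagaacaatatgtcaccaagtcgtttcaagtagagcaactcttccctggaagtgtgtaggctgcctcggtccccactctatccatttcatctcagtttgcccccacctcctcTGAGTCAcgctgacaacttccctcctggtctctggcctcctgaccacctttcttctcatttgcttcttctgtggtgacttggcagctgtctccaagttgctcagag
In these sequences the PU.1 letters of Spp1 start 113 bases before the annotated start, and the AP-1 letters of Mmp12 and Itgax 44 and 56 bases before it, and those of Gpnmb 8 bases after it. By column totals Spp1 and Mmp12 had log2 ratios of -0.60 and -0.48, Gpnmb -0.23 and Itgax -0.08. Relative to genes of like length these 4 were at -0.63, -0.58, -0.45 and -0.32. A link between the letters and the ratios was not tested.

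New coding transcripts were assembled by the authors over all libraries together, and 2 of the markers received 1 each. That of Mmp12 extended from 7346257 to 7360461 on chromosome 9 with 11 exons, of which 10 had the ends of exons in GENCODE M21. Its first exon, of 68 bases from 7346257 to 7346324, overlapped no annotated exon of Mmp12 and was joined to the annotated exon that starts at 7347491, so that 9 of the 10 junctions were known. It lies downstream of the first annotated start and upstream of the second promoter window shown above. The new transcript of Itgax covered the 3′ end of the gene, from 128147449 to 128150657, with 7 exons and 6 junctions. All of these junctions and 6 of the exons were known, and the first exon, of 478 bases from 128147449 to 128147926, had an annotated end but no annotated start and overlapped a known exon by 433 bases. Since both were deposited without values per group, no comparison between the diets can be made from them. Of the 16 splicing events that the authors deposited as different between the groups, 0 were in the markers.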

How the data were processed

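The authors sequenced paired-end libraries of liver RNA, 7 pools per group, and groups were taken from the sample labels. The authors removed low-quality reads, mapped clean reads with Bowtie2 to reference transcripts merged with their new coding transcripts, and estimated gene levels with RSEM. The authors deposited an expected count per gene, summed over the libraries of each group and not normalized. For single libraries the deposited files gave the count of clean reads and the percent mapped to genes. Fold changes and p-values of the authors' own gene comparison, also deposited, were not used. Tool versions are not given in the sources used here.

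Counts were scaled by the column total of each group. The intervals are exact binomial (Clopper-Pearson) for ratios and exact Poisson for levels, both at 95%. Genes that reached 100 counts over both groups (13291 of 17552) served as background, and genes of like length were the 500 nearest. Genes were counted as lower from 20% below and as higher from 25% above control, and no pseudocount was added. Non-whole counts were those off a whole number by more than 1e-06. The design had foreseen edgeR only if counts per library existed, and they were not in the gene table. Named genes were the 10 markers and members of 19 lists of 183 genes. The values of a bile duct marker, and the summed level and count of higher genes of its list, are not reported here. The markers and the lists were chosen with earlier results of these data known. Where a symbol stood on several rows, the row with the RefSeq identifier was taken. RefSeq identifiers gave coordinates of GRCm38, the build of the sequence names in the deposited annotation. The computation was tested on simulated data. Intervals came from scipy 1.17.1, tables from pandas 2.3.3 with numpy 2.4.6 and plots from matplotlib 3.10.9, all under Python 3.11.15.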

Additional observations from a re-analysis of the deposited data

Results flagged for a closer look

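Control replicate 3 had 64.3% of its clean reads mapped to genes, and the nearest of the other 6 control libraries 74.4%. The gap was 0.588 of the range of the group, above the 0.568 allowed for 7 libraries, a limit that chance passes in about 1 of 20 groups. The same limit was applied to several library measures in each group, so a flag somewhere is likelier than that rate. This library supplied 9.12% of the mapped read pairs behind the control values of the markers.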

How the results depend on the processing

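Centred on the median of all genes, the median log2 ratio of the markers was -0.62 and that of their sum -0.52, and without the 100 genes of the highest counts in the totals they were -0.56 and -0.47. Relative to genes of like length the sum was at -0.48. By column totals it was at -0.36, and without Cd36, the marker with the most counts, at -0.24. Relative to the summed macrophage markers, an alternative added after seeing the data, the median was -0.11 and the sum -0.020, with 1 marker lower by the limit and 1 higher, which follows from the lower level of the macrophage markers themselves. Otherwise 6 or 7 markers were past the limit downwards and 0 upwards under these scalings and a pseudocount of 1. With 200 or 1000 genes of like length, a minimum of 10 counts or genes also within 2-fold in count, all 10 markers were below their like-length genes, 8 past the limit with 200 genes and 7 with the others.

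Leaving out each library in turn and a comparison of edgeR with DESeq2 were not run, since gene values are sums over each group. No paired analysis was possible because the gene columns carry no replicate numbers. Depth limits Hcst, with 74 and 43 counts, more than the markers, of which Itgax had the fewest, 1036 and 991. For these the spread between pools is not known.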
